A study of Mus musculus with 87 samples.

Results

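The livers of mice killed 20 h after sham surgery (S20, n = 3) were compared with livers of resting mice that had no surgery (C0 replicates 1 to 6, n = 6), so the comparison rests on 9 of the 80 libraries analysed here. All animals were male C57/BL6 mice of 12 to 14 weeks, entrained to light with fasting from ZT0 to ZT12 and to dark with feeding from ZT12 to ZT24. The sham operation was a laparotomy under isoflurane at ZT2 without removal of liver tissue, and C0 mice were killed at that hour, whereas S20 mice were killed at ZT22, late in the dark phase. Each library is poly(A)-selected RNA from 1 whole liver, read by RNA-Seq, and its values are log2 RPKM (reads scaled to transcript length in kilobases and to the mapped reads of the library). A resting liver of ZT22 was not analysed here, so surgery, hour of day and feeding state cannot be told apart in S20 against C0. Sham livers at 48 h (S48, ZT2, n = 3) and at 10 h (S10, ZT12, n = 3) were therefore set beside S20, of which S48 shares its hour with C0.

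Tissue injury sets off the acute-phase response, in which cytokines reaching the liver make hepatocytes secrete defence proteins such as the serum amyloid A (SAA) proteins, while transcripts of other hepatocyte functions fall. The liver also runs a circadian clock, a loop in which ARNTL and CLOCK drive the genes of their own repressors (the PER, CRY and NR1D1 proteins), and feeding adds daily swings in the synthesis of lipids and in the breakdown of amino acids.

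Depth, estimated from the value of a single read, was 14.7, 20.7 and 15.3 M reads in the S20 libraries and 25.6 to 34.5 M reads in C0 replicates 1 to 6, so that S20 is the shallower side. At the detection threshold used here (log2 RPKM of −1.5) a transcript of 2 kb carried about 10.8 reads at the median depth of S20 and 22.4 at that of C0. The S20 libraries correlated with each other at r of 0.986 to 0.988 across genes, and with the C0 libraries at 0.973 to 0.980. The defining hepatocyte markers were present in all 9 libraries, with a summed RPKM of 33909 to 37339 in S20 and 45652 to 54672 in C0. Alb made up most of this sum, with a mean RPKM of 24169 in S20 and 36327 in C0.

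The resting livers were not uniform, which bears on most of what follows. C0 replicates 4 to 6 stood apart from C0 replicates 1 to 3 in clock, stress and feeding genes. The mean log2 RPKM of Lpin1, which makes diacylglycerol and coactivates fasting genes, was 2.46 in C0 replicates 1 to 3 and 7.14 in C0 replicates 4 to 6. That of Per1, a clock repressor also driven by glucocorticoids, was −3.62 against 1.71, that of Nr1d1 was 2.84 against −0.10, and that of the metallothionein gene Mt2 was 1.78 against 5.48. C0 replicates 7 to 9, which are not part of the comparison, had Lpin1 at 2.78, Per1 at −1.62, Nr1d1 at 3.43 and Mt2 at 2.01. In other genes it was C0 replicates 7 to 9 that stood apart. For the chemokine gene Cxcl1, S20 differed by 2.61 from C0 replicates 1 to 3, by 3.11 from 4 to 6 and by −0.33 from 7 to 9. For Clock these differences were 0.18, 0.06 and 1.05. By the study's own account, resting livers came from all 3 experimental periods and the S20 livers from 1 of them, but the replicate numbers of those periods are not given in the sources used here. For the called genes named below, it is therefore stated where the call was not made against C0 replicates 1 to 3 alone or against C0 replicates 4 to 6 alone. Below, each or neither triplicate means C0 replicates 1 to 3 and C0 replicates 4 to 6, without C0 replicates 7 to 9.

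Of 15396 genes tested with limma, 1347 were called (a change of more than 0.5 on the log2(RPKM + 0.25) scale, with an adjusted p under 0.05), which is 8.75% of the genes tested. They divided into 799 genes that were higher in S20 (5.19%) and 548 that were lower (3.56%). Both shares are the background for the counts of S20 against C0 in each list below. The split depends on the scale. With all libraries set to the same median, which moved the median difference of all genes from 0.03 to −0.07, it was 502 higher and 954 lower. Changes beyond a log2 fold of 2 were fewer, with 29 genes higher and 17 lower, and beyond 3 there were 12 higher and 2 lower. The 3 S20 libraries lay wholly above the 6 C0 libraries for 12.7% of the genes tested and wholly below for 8.11%. Of the 799 higher genes 366 were called in the same direction against C0 replicates 1 to 3 and against C0 replicates 4 to 6 alone, and of the 548 lower genes 214. Against C0 replicates 7 to 9 the calls numbered 4181.

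The largest rises were acute-phase genes. Of the 34 genes of the rising acute-phase list that were tested, 25 rose and 1 fell, against 5.19% and 3.56% of all genes tested, and the median difference of the list was 1.37 against 0.03. Of the 25, 22 were called against C0 replicates 1 to 3 and against C0 replicates 4 to 6 alone, and 21 also against C0 replicates 7 to 9. The 3 leading genes were Saa2 and Saa1, which encode the main acute-phase apolipoproteins, and Lcn2, which encodes the iron-siderophore binder lipocalin 2. Their letters upstream of the RefSeq start (250 bases, build GRCm38.p6, 5′ to 3′ on the gene's strand) are shown because these genes carry the largest difference of the comparison; they were chosen after their values were seen. Capitals mark the word TTNNGCAA of the C/EBP family, read on both strands.

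Saa2 (chr7:46751583-46751832, plus strand): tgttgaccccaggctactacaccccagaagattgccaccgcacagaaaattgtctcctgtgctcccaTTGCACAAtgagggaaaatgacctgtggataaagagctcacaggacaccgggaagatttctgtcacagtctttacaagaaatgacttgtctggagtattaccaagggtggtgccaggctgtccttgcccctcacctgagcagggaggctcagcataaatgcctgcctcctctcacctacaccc
Saa1 (chr7:46742981-46743230, minus strand): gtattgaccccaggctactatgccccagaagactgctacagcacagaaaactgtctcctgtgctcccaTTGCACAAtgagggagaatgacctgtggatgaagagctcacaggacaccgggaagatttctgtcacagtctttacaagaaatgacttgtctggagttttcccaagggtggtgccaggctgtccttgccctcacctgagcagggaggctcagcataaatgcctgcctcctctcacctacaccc
Lcn2 (chr2:32387740-32387989, minus strand): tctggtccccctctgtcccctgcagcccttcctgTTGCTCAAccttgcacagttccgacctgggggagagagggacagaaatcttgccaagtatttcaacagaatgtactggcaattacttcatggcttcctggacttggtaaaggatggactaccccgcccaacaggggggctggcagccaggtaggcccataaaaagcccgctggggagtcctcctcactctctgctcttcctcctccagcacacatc

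The word was found once in each of the 3, at 183 bases before the start of Saa2, 182 before that of Saa1 and 216 before that of Lcn2. Of all 32851 promoter entries, 9.56% hold it. Neither GGG and TTTCC with 2 bases between them, a word of NF-kB (in 1.41% of entries), nor TTCNNNGAA, a word of STAT factors (in 7.02%), occurs in these 3 windows.

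Saa2 (chromosome 7, 54007203 to 54009684, mm9) lay at log2 RPKM 14.11, 13.62 and 13.87 in S20 and between 4.05 and 4.84 in C0, with a median of 4.35. It was 707-fold higher in S20 (log2 fold change 9.46 ± 0.68 SE, limma adjusted p = 1.98e-17). Saa1 (chromosome 7, 53995871 to 53998350) lay at 14.14, 13.62 and 13.76 in S20 and between 5.46 and 6.84 in C0. It was 231-fold higher (7.85 ± 0.64, adjusted p = 3.63e-15). The genes are near-identical copies whose reads may be shared between them, so that their sum is the safer measure. Saa1 and Saa2 together made up 4.28% to 6.17% of the summed RPKM of an S20 library and 0.0110% to 0.0243% of a C0 library, and by mean RPKM they ranked 4 and 3 among all genes in S20. Lcn2 (chromosome 2, 32240153 to 32243317) lay at 9.01, 9.37 and 8.96 in S20 and between 0.69 and 1.19 in C0, a 254-fold rise (7.99 ± 0.62, adjusted p = 7.80e-16). For each of the 3 genes the gap between the groups was far wider than the spread within either.

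**Figure D1:**
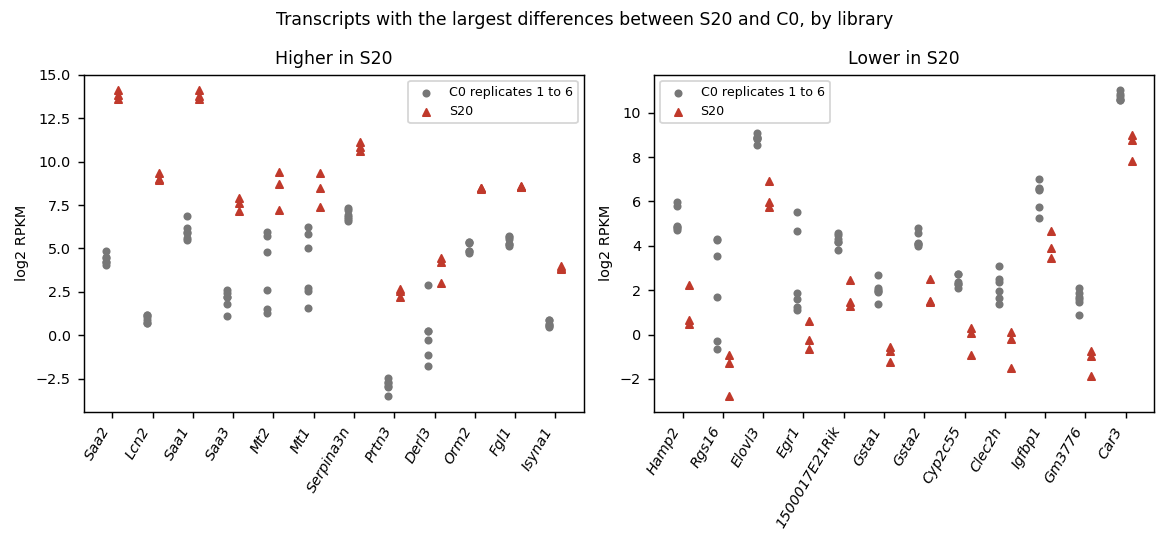
Log2 RPKM of the 12 genes with the largest rises (left) and the 12 with the largest falls (right) in S20; each point is 1 liver, grey circles are C0 replicates 1 to 6 and red triangles are S20. Saa2, Saa1 and Lcn2 stand furthest from C0, and the C0 points of Mt2, Mt1, Rgs16, Egr1 and Derl3 are widely spread.

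Other acute-phase genes rose by less. Saa3, the SAA gene that macrophages also express, was at 7.14, 7.92 and 7.63 in S20 and between 1.10 and 2.61 in C0 (5.42 ± 0.85, adjusted p = 4.16e-06). Serpina3n, which encodes a protease inhibitor, was at 11.11, 10.83 and 10.62 against 6.60 to 7.35 (3.91 ± 0.24, adjusted p = 1.06e-20). Orm2, which encodes the plasma carrier orosomucoid, was at 8.46, 8.43 and 8.46 against 4.72 to 5.38 (3.37 ± 0.48). Fgl1, which encodes the hepatocyte protein hepassocin, was at 8.56, 8.54 and 8.58 against 5.13 to 5.72 (3.14 ± 0.29). In these genes the S20 livers lay close together. That no S20 liver reached the C0 range was a condition of their choice and not a result. Haptoglobin (Hp), which binds free haemoglobin, rose 7.00-fold (2.81 ± 0.25) and hemopexin (Hpx), which binds free haem, rose 4.75-fold (2.25 ± 0.25). Hp and Hpx together went from 0.477% to 0.571% of the summed RPKM in C0 to 2.97% to 3.24% in S20. Socs3, the feedback inhibitor of IL-6 signalling, rose by 2.81 ± 0.36. The complement gene C3 and the fibrinogen gene Fgb, already abundant at rest, rose by 1.21 ± 0.15 and 0.96 ± 0.19.

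The exceptions in the list were Hamp2 and 8 genes that were not called, among them Crp (0.18, adjusted p = 0.408) and Saa4 (0.59, adjusted p = 0.163). Hamp2, a second hepcidin gene of the mouse (chromosome 7, 31707391 to 31709200), had the largest fall among the named genes. It was at 0.49, 2.25 and 0.65 in S20 and between 4.69 and 5.95 in C0 (−3.87 ± 0.47, adjusted p = 6.03e-09), and the fall was of like size against C0 replicates 1 to 3 (−3.83) and 4 to 6 (−3.91). Its neighbour Hamp, which encodes the iron hormone hepcidin, was at 9.32, 10.40 and 9.54 in S20 and between 7.47 and 10.30 in C0 (0.72 ± 0.44, adjusted p = 0.271). Hamp and Hamp2 are close copies, so the split of their reads is uncertain. Of the 16 genes of the falling acute-phase list 2 fell, transthyretin (Ttr, −0.78 ± 0.16) and albumin (Alb, −0.59 ± 0.17), and the list had a median of −0.24. Alb was not called against C0 replicates 1 to 3 (adjusted p = 0.058).

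Metal genes were called in both directions. The metallothioneins Mt2 and Mt1, which bind zinc and copper, were at 8.70, 9.41 and 7.23 and at 8.49, 9.33 and 7.38 in S20. In C0 they lay between 1.26 and 5.94 and between 1.57 and 6.21. The differences were 4.76 ± 0.73 and 4.37 ± 0.62 (adjusted p = 2.17e-06 and 5.15e-07), and they depended on the C0 triplicate. Mt2 differed by 6.56 from C0 replicates 1 to 3 and by 2.96 from C0 replicates 4 to 6, with both called. The zinc exporter gene Slc30a1 rose (1.26 ± 0.21, adjusted p = 7.61e-06) and the zinc importer gene Slc39a4 fell (−0.98 ± 0.21), both against each triplicate. The importer gene Slc39a14 was called higher (0.73 ± 0.24) but not against C0 replicates 4 to 6 (0.19, adjusted p = 0.679). In all, 5 of 19 metal genes rose and 2 fell, where 5.19% and 3.56% of all genes tested did.

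Among the 12 largest rises were 3 genes of other kinds. Prtn3, known as a protease of neutrophil granules, was at 2.64, 2.53 and 2.19 in S20 and between −3.53 and −2.47 in C0 (3.88 ± 0.41, adjusted p = 5.98e-11). Of 13 neutrophil markers 12 were tested and 1 was called, S100a9, which was at −0.13, 2.50 and 0.46 against −2.17 to −0.57 (1.89 ± 0.62, adjusted p = 0.0259) and was not called against C0 replicates 1 to 3 (adjusted p = 0.0932), and Ly6g was listed at 0 in all 9 libraries. The summed RPKM of the 13 was 1.59 to 12.7 in S20 and 0.454 to 1.72 in C0, and the part of neutrophils in the Prtn3 value was not tested. Isyna1, the enzyme that makes inositol phosphate from glucose 6-phosphate, was at 3.84, 3.99 and 3.87 against 0.47 to 0.89 (3.05 ± 0.29). Derl3, which serves the disposal of misfolded proteins in the endoplasmic reticulum (ER), was at 4.24, 3.02 and 4.44 against −1.78 to 2.87 (3.48 ± 0.76, adjusted p = 0.000713), with C0 replicate 1 at the upper end.

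**Figure D2:**
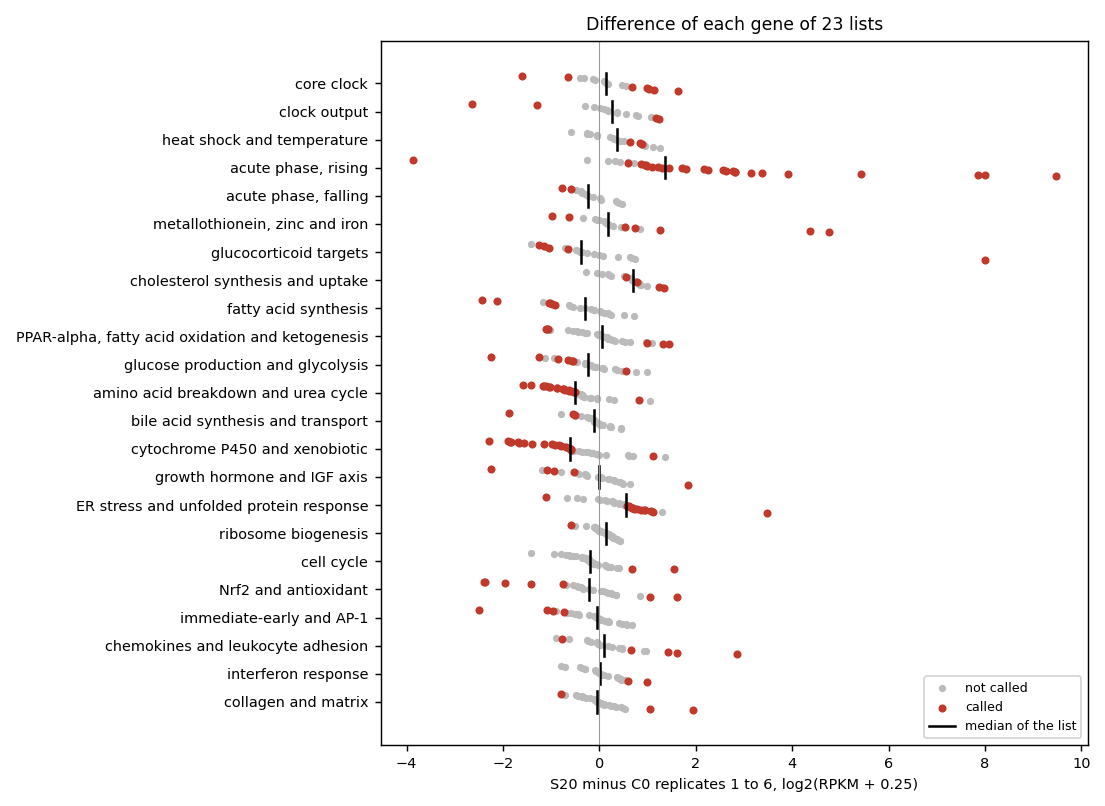
Difference between S20 and C0 replicates 1 to 6 on the log2(RPKM + 0.25) scale (x axis) for each gene of 23 lists (y axis); red points were called by limma, grey points were not, and black bars mark the median of a list. The rising acute-phase list reaches 9.46, while the cytochrome P450 and amino acid lists have most of their called genes below 0.

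The ER list, of chaperones and other genes of the unfolded protein response, had 13 of 33 genes higher and 1 lower, with a median of 0.55. This count depended on the C0 livers and on single libraries. Against C0 replicates 4 to 6 alone 19 genes of the list were higher, against C0 replicates 7 to 9 12 were, and against C0 replicates 1 to 3 alone 1 was, Derl3. The count was 6 without S20 replicate 1, 5 without S20 replicate 3, 7 without C0 replicate 6 and 2 with only the compared libraries in the fit. Sdf2l1 was at 6.08, 5.51 and 6.52 in S20, while its C0 mean was 5.52 in replicates 1 to 3 and 4.31 in replicates 4 to 6. Hyou1 was at 5.60, 4.84 and 6.23, with C0 means of 5.32 and 3.62. Hspa5, the abundant ER chaperone BiP, was at 8.27, 7.68 and 8.98, with C0 means of 8.52 and 7.05, and was not called (0.52 ± 0.33, adjusted p = 0.301). The member that was lower, Trib3, a target of the integrated stress response, had a difference of −1.10 ± 0.32 and was not called against C0 replicates 4 to 6 (adjusted p = 0.076). The heat-shock list had 3 of 19 genes higher and none lower, where 5.19% and 3.56% of all genes tested were. All 3 were co-chaperones or chaperone relatives (Dnajb1 0.89 ± 0.23, Bag3 0.84 ± 0.21 and Hspa4l 0.63 ± 0.23). With the libraries set to the same median, the list had 2 genes higher and 1 lower. None was higher without S20 replicate 3 or with only the compared libraries in the fit, whereas 7 were without S20 replicate 2. Hspa4l was called against neither C0 triplicate alone. In each of the 3, S20 replicate 2 lay within the C0 range, so that Dnajb1, for example, was at 3.29, 2.43 and 3.98 in S20 and between 2.02 and 2.52 in C0.

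Drug-metabolising genes fell. Of 44 genes of the cytochrome P450 and xenobiotic list 17 were lower and 1 was higher, with a median of −0.61. Of the 17, 11 were lower against each of these C0 triplicates alone, and against C0 replicates 7 to 9 the list had 10 genes lower and 7 higher. Without S20 replicate 3, 11 were lower. Cyp3a11, the main CYP3A enzyme of mouse liver (chromosome 5, 146666002 to 146691540), was at 8.78, 9.11 and 8.69 in S20 and between 10.50 and 10.99 in C0 (−1.89 ± 0.23, adjusted p = 6.33e-09). Cyp3a44, a close copy that may share its reads, fell by 1.86 ± 0.23 on the log2 scale. Cyp1a2, which metabolises caffeine, was at 6.41, 6.80 and 6.17 against 8.19 to 8.40 (−1.84 ± 0.30, adjusted p = 7.08e-06). Cyp2c55 was at 0.08, 0.28 and −0.94 against 2.10 to 2.72 (−2.30 ± 0.46). The member that rose was Cyp3a13, at 6.68, 6.66 and 6.77 against 5.33 to 5.83 (1.12 ± 0.17, adjusted p = 1.07e-06). In all of these the groups did not overlap, which for Cyp2c55 was a condition of its choice.

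Glutathione S-transferases of the alpha class, which conjugate electrophiles, fell with them. Gsta4 was at 3.49, 3.95 and 3.75 in S20 against 5.45 to 6.04 in C0 (−1.97 ± 0.37, adjusted p = 0.000107). Gsta1, Gsta2 and Gm3776 fell by 2.40 ± 0.65, 2.37 ± 0.53 and 2.23 ± 0.66, but they are near-identical copies on chromosome 9 and cannot be counted as separate observations. Other members of the Nrf2 and antioxidant list went up, and the list as a whole had 5 of 25 genes lower and 2 higher (3 and 1 without S20 replicate 1 or without S20 replicate 3). Of all genes tested 3.56% were lower and 5.19% higher. Nqo1, a quinone reductase, was at 1.88, 2.17 and 2.49 against 0.44 to 1.56 (1.05 ± 0.25), and was not called against C0 replicates 4 to 6 (adjusted p = 0.0856). Osgin1 was called (1.61 ± 0.52, adjusted p = 0.0232), yet its C0 mean was 6.86 in replicates 1 to 3 and 3.90 in replicates 4 to 6 against 6.89, 7.03 and 7.08 in S20, and it was not called against the former. Car3, an abundant carbonic anhydrase of adult male liver, was at 9.01, 8.79 and 7.81 against 10.58 to 11.03 (−2.20 ± 0.55, adjusted p = 0.00307). Slco1a4, an organic anion importer of the bile acid list, was at 1.26, 2.95 and 1.14 against 3.01 to 4.45 (−1.88 ± 0.34), and 2 further genes of that list fell just past the threshold, Baat (−0.54 ± 0.11) and Cyp27a1 (−0.51 ± 0.13). Cyp27a1 was not called against C0 replicates 1 to 3 (−0.34, adjusted p = 0.120) or 7 to 9. The list had 1 gene lower without S20 replicate 1.

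Genes for the breakdown of amino acids and for the urea cycle were the other large group of falls. Of 38 genes 19 were lower and 1 was higher, and the median of the list was −0.50. Against C0 replicates 1 to 3 alone 10 were lower in all and against C0 replicates 4 to 6 alone 22, and 9 of the 19 were lower against both. Ass1, the argininosuccinate synthase of the urea cycle (chromosome 2, 31325727 to 31376192), was among those 9. It was at 8.82, 8.93 and 8.67 in S20 and between 9.93 and 11.09 in C0 (−1.59 ± 0.19, adjusted p = 2.77e-09), and it fell by 1.23 against C0 replicates 1 to 3 and by 1.95 against C0 replicates 4 to 6. The ammonia-fixing enzyme gene Cps1 (−0.87 ± 0.17), the ornithine transcarbamylase gene Otc (−0.74 ± 0.14) and the ornithine aminotransferase gene Oat (−1.11 ± 0.24) also fell against each triplicate. The fasting- and glucocorticoid-driven genes Tat, Got1 and Sds did not. Against C0 replicates 7 to 9 Otc was called lower (−0.80), but Cps1 (−0.05) and Oat (−0.39) were not called. Cps1 was also not called with only the compared libraries in the fit. Tat, the tyrosine aminotransferase, was at 8.53, 7.93 and 8.00 in S20 (−1.14 ± 0.32, adjusted p = 0.00864), where its C0 mean was 8.38 in replicates 1 to 3 and 10.21 in replicates 4 to 6. The difference of Got1 was −0.73 against the former (adjusted p = 0.105) and −2.12 against the latter, and that of Sds was −0.13 and −2.20. Mat1a, which makes S-adenosylmethionine, was the member that was higher (0.82 ± 0.26, adjusted p = 0.0207), and not against C0 replicates 4 to 6 (0.31).

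Calls in the lists of glucose and fatty acid metabolism also depended on the C0 triplicate. In the glucose list 6 of 28 genes were lower and 1 was higher (median −0.23). Of the 6, 1, the glycogen phosphorylase gene Pygl, was lower against C0 replicates 1 to 3 and against 4 to 6 alone (6.35, 6.30 and 6.25 in S20 against 6.87 to 7.07 in C0, −0.65 ± 0.17). Against C0 replicates 7 to 9 Pygl was not called (−0.34, limma adjusted p = 0.168). Pck1, the gluconeogenic PEP carboxykinase, was at 7.74, 8.03 and 7.44 in S20, with C0 means of 8.09 and 9.88, and it was called over all 6 C0 livers (−1.24 ± 0.34) but not against replicates 1 to 3 (adjusted p = 0.525). Ppargc1a showed the same division, with a difference of −0.26 against replicates 1 to 3 and −1.45 against 4 to 6. In the fatty acid synthesis list 6 of 23 genes were lower (median −0.30). Scd1, the stearoyl-CoA desaturase, was the 1 that was lower against each triplicate, at 8.09, 9.23 and 9.02 against 10.27 to 11.42 (−2.12 ± 0.50, adjusted p = 0.0017). Lpin1 was called lower (−2.44 ± 0.72, adjusted p = 0.0126), but its S20 values of 2.31, 2.15 and 2.51 lay among those of C0 replicates 1 to 3, from which it differed by −0.13 and against which it was not called. Elovl5 (−1.05 ± 0.28) and Scd2 (−1.02 ± 0.37) were likewise not called against C0 replicates 1 to 3. Without S20 replicate 1 each of these lists had 3 genes lower, and the glucose list had 2 without S20 replicate 3 and 3 without C0 replicate 5 or without C0 replicate 6. The glucocorticoid target list had 4 of 20 genes lower (2 without S20 replicate 3), where 3.56% of all genes tested were. Lcn2 was its 1 higher gene, where 5.19% of all genes tested were higher. Against C0 replicates 1 to 3 alone 5 were higher and 1 lower, and against C0 replicates 4 to 6 alone 2 were higher and 11 lower, so that the direction of this list turned with the triplicate. Against C0 replicates 7 to 9 it had 5 higher and 1 lower, and the glucose list had 10 higher and none lower, the fatty acid list 5 and 3, and the amino acid list 5 and 9.

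**Figure D3:**
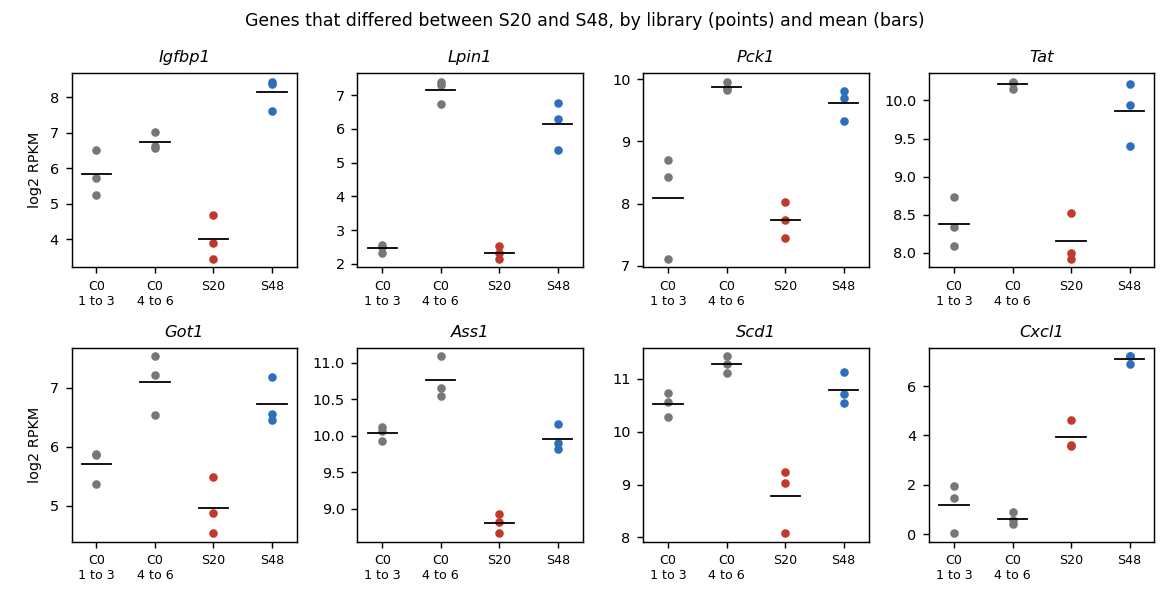
Log2 RPKM of 8 genes in C0 replicates 1 to 3, C0 replicates 4 to 6, S20 and S48; points are single livers and bars are means of 3. Lpin1, Pck1, Tat and Got1 of S20 lie near C0 replicates 1 to 3, whereas Scd1 and Ass1 lie below both C0 triplicates and Cxcl1 above both.

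Targets of PPAR-alpha, the fatty acid receptor of hepatocytes, gave few calls. Of 35, 3 were higher and 3 lower (2 and 3 with the libraries set to the same median), where 5.19% and 3.56% of all genes tested were. The median of the list was 0.06, beside 0.03 for all genes tested. Fabp1, which encodes the liver fatty acid binding protein, was at 11.16, 11.06 and 11.35 against 11.83 to 12.80 (−1.11 ± 0.21, adjusted p = 0.000119), and lower against each triplicate. Angptl4, an inhibitor of lipoprotein lipase, was called lower (−1.09 ± 0.39), with a difference of −0.29 against C0 replicates 1 to 3, where it was not called. Vnn1 (1.32 ± 0.34) and Acot3 (1.45 ± 0.53) were called higher, Vnn1 not against C0 replicates 1 to 3 (adjusted p = 0.0712). Acot3 just passed the threshold (adjusted p = 0.0498) and was called against neither C0 replicates 1 to 3 nor 4 to 6 alone. In the growth hormone and IGF list 4 of 26 genes were lower and 1 was higher, and the IGF binding protein genes Igfbp1, Igfbp2 and Igfbp3 were 3 of the 4. Without S20 replicate 1 the list had 2 lower. Igfbp2 was not called against C0 replicates 4 to 6 (adjusted p = 0.106). Igfbp1, which is raised by fasting, was at 3.45, 4.68 and 3.90 against 5.25 to 7.03 (−2.26 ± 0.61, adjusted p = 0.00606), and the difference from C0 replicates 1 to 3 was −1.80 (adjusted p = 0.065). Igfbp3 was at 0.77, 1.81 and 1.16 against 1.93 to 2.87 (−0.94 ± 0.22), lower against each triplicate.

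Cholesterol genes were called in 1 direction only. Of 24 genes of synthesis and uptake 4 rose and none fell, where 5.19% and 3.56% of all genes tested did. The median of the list was 0.69, beside 0.03 for all genes tested. The 3 S20 libraries lay wholly above the 6 C0 libraries for 15 of the 24, against 12.7% of all genes tested. They lay wholly below for 1, against 8.11%. Of the 4, 2 were called against each triplicate. The count was 1 without S20 replicate 1, 2 without S20 replicate 3 and 14 with only the compared libraries in the fit. Srebf2, which encodes the factor that drives this pathway, was at 4.19, 3.70 and 4.11 against 3.09 to 3.70 (0.55 ± 0.18, adjusted p = 0.0295). Srebf2 was not called against C0 replicates 4 to 6. Mvd (1.29 ± 0.51), Lss (1.00 ± 0.40) and Sqle (0.83 ± 0.40), enzymes of the pathway, did not pass the threshold. Against C0 replicates 7 to 9 the list had 16 genes higher.

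**Figure D4:**
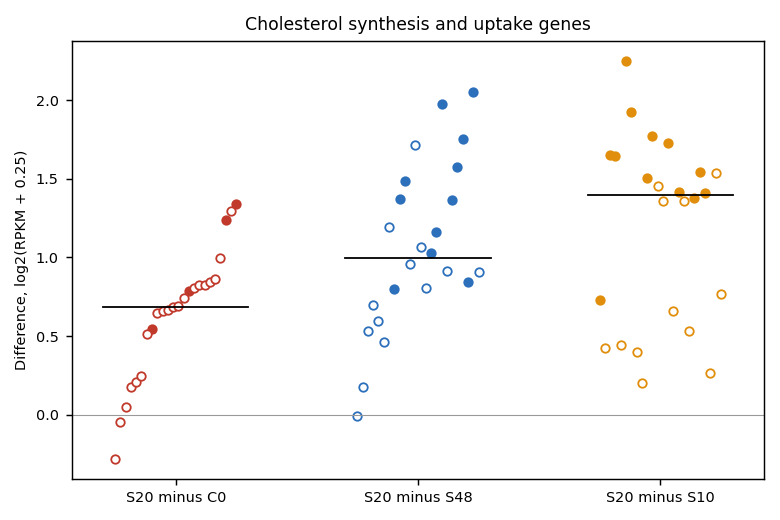
Difference on the log2(RPKM + 0.25) scale (y axis) of the 24 cholesterol genes for S20 minus C0 replicates 1 to 6 (red), S20 minus S48 (blue) and S20 minus S10 (orange), with genes in the same order in each; filled points were called by limma and bars are medians. The list has 4 called genes against C0, 11 against S48 and 12 against S10, with every called difference above 0.

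The upstream letters of Srebf2, from the RefSeq table, are shown as those of the factor of this pathway. Its 250 bases hold neither TCACNCCAC, the word of the sterol regulatory element (in 1.05% of entries), nor the E-box CACGTG (in 6.02%).

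Srebf2 (chr15:82147019-82147268, plus strand): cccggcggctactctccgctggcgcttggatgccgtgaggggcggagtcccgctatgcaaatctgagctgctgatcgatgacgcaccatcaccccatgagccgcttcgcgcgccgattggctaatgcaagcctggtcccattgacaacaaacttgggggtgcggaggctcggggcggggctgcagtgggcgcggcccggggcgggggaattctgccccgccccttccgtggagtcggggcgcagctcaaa

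Clock genes moved in both directions. Of 17 core clock genes 5 were higher and 2 lower, and of 16 clock output genes 2 were higher and 2 lower. Of all genes tested 5.19% were higher and 3.56% lower. Against C0 replicates 7 to 9 the core list had 9 higher and 3 lower and the output list 9 and 1, and against C0 replicates 1 to 3 the output list had 7 and 1. Per2 (chromosome 1, 93312561 to 93355907) was at 1.73, 0.80 and 1.87 in S20 and between −1.10 and −0.01 in C0 (1.64 ± 0.29, adjusted p = 2.60e-05). Per3 was at −1.03, −0.65 and −1.48 against −3.30 to −2.52 (0.98 ± 0.18, adjusted p = 4.07e-05). Every C0 value of Per3 lay below the detection threshold of −1.5, and Per3 was not called with a pseudocount of 1. These 2 repressor genes were higher against each C0 triplicate, as were the output genes Wee1 (0.38, 0.48 and 0.19 against −1.68 to −1.06, 1.23 ± 0.27), a kinase that delays mitosis, and Tef (2.78, 2.92 and 2.51 against 1.07 to 1.82, 1.18 ± 0.24), a PAR-bZIP factor. Cry1 (0.68 ± 0.22) and Bhlhe40 (1.14 ± 0.28) were higher over all 6 C0 livers, and not against replicates 4 to 6 alone (adjusted p = 0.089 and 0.147). Nr1d1, which encodes the repressor REV-ERB alpha, was at −0.35, −0.52 and −0.49 in S20, and at 2.50, 2.74 and 3.28 in C0 replicates 1 to 3 but at −0.92, 0.06 and 0.55 in C0 replicates 4 to 6. Its fall (−1.60 ± 0.50, adjusted p = 0.0179) was thus −2.92 against the former and −0.29 against the latter (adjusted p = 0.770). Per1 was not called over all 6 (0.54 ± 0.49, adjusted p = 0.495), higher by 2.23 against replicates 1 to 3 and lower by 1.15 on the log2 scale against replicates 4 to 6 (−1.15, adjusted p = 0.0336).

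The activator genes Arntl and Clock were not called over the 6 C0 livers. Arntl was at 3.00, 3.02 and 2.93 in S20 and between 2.87 and 3.35 in C0 (−0.08 ± 0.20), and Clock at 2.65, 2.33 and 2.58 against 2.23 to 2.61 (0.12 ± 0.12). Clock was called higher by 1.05 against C0 replicates 7 to 9. Their paralog Npas2 was called lower (−0.65 ± 0.22, adjusted p = 0.0333), a difference that was not called against C0 replicates 1 to 3. The other core genes were not called, with Nr1d2 at −0.40 ± 0.25, Rora at −0.31 ± 0.16, Cry2 at 0.14 ± 0.15, Bhlhe41 at 0.18 ± 0.23, Gm129 (the repressor CHRONO) at 0.47 ± 0.38, and the kinase genes Csnk1d at 0.11 ± 0.09 and Csnk1e at −0.14 ± 0.14. Elovl3, a fatty acid elongase with a strong daily rhythm (chromosome 19, 46206387 to 46210184), was at 6.91, 5.98 and 5.73 in S20 and between 8.54 and 9.09 in C0 (−2.64 ± 0.44, adjusted p = 1.07e-05), lower against each triplicate. Upp2, the uridine phosphorylase, was called lower (−1.30 ± 0.40), with C0 means of 3.66 and 5.50 and S20 values of 3.20, 4.23 and 2.34, and it was not called against C0 replicates 1 to 3.

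**Figure D5:**
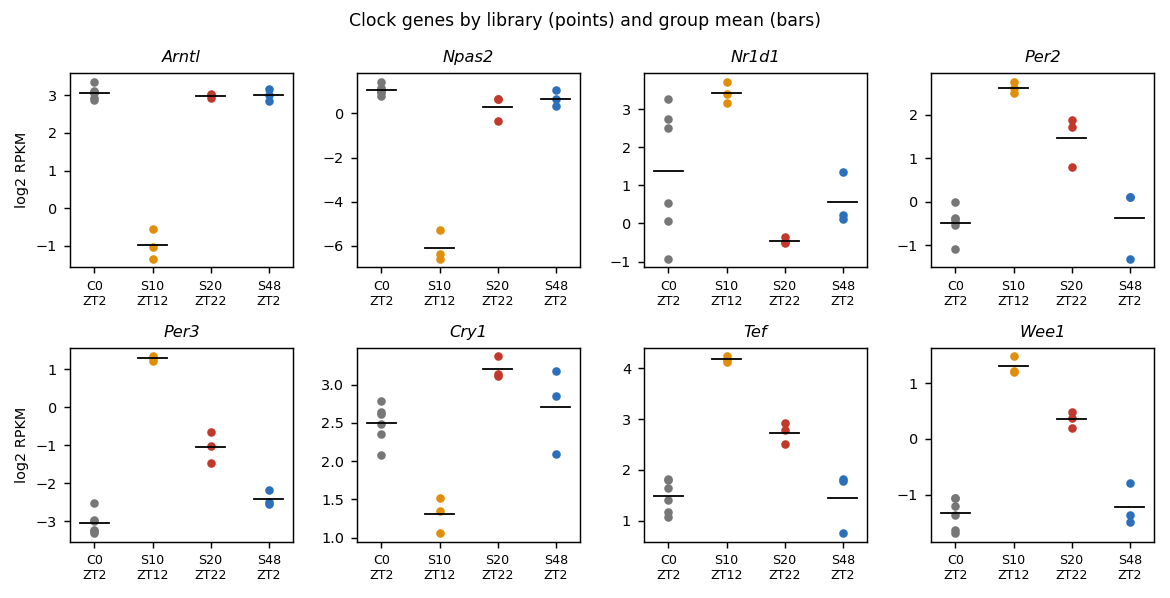
Log2 RPKM of 8 clock genes in C0 replicates 1 to 6 (ZT2) and in S10 (ZT12), S20 (ZT22) and S48 (ZT2); points are single livers and bars are group means. Arntl of S20 is at the level of C0 and far above S10, Per2 of S20 lies between C0 and S10, and Nr1d1 of C0 falls into 2 sets of 3.

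The 4 called genes of the clock and clock output lists with the largest changes among those that have a RefSeq entry are Nr1d1, Upp2, Tef and Per3, while Elovl3, Per2, Wee1 and Bhlhe40 were not in the table used here. Their upstream letters are shown to place the words of the clock's own factors. Capitals mark the E-box CACGTG (in 6.02% of entries), to which ARNTL and CLOCK bind, and the D-box TTATGNAA (in 3.07%), to which TEF and its relatives bind. The word TAGGTCA of the ROR and REV-ERB receptors (in 2.23%) was searched as well and was not found in any of them. Upp2 and Tef have 2 listed starts each.

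Per3 (chr4:151044666-151044915, minus strand): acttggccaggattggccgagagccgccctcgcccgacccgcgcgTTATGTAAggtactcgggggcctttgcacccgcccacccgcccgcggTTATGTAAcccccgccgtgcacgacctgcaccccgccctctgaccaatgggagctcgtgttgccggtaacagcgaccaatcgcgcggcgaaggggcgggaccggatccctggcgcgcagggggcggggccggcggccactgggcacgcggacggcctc
Tef, start 1 (chr15:81802423-81802672, plus strand): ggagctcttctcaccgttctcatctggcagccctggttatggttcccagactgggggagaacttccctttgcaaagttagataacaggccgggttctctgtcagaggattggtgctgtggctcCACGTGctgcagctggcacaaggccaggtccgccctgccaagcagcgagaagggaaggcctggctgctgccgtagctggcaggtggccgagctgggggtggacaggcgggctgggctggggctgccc
Tef, start 2 (chr15:81811164-81811413, plus strand): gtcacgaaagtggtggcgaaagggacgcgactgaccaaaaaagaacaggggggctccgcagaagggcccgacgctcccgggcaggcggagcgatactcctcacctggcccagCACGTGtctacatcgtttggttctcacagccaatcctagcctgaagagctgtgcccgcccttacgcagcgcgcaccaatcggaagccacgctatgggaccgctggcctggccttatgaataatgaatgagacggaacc
Nr1d1 (chr11:98775378-98775627, minus strand): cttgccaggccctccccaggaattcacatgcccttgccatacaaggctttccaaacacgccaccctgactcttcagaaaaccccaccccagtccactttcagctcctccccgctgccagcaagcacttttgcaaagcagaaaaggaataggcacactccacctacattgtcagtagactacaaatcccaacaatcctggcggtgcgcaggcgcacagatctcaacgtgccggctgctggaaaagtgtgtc
Upp2, start 1 (chr2:58567084-58567333, plus strand): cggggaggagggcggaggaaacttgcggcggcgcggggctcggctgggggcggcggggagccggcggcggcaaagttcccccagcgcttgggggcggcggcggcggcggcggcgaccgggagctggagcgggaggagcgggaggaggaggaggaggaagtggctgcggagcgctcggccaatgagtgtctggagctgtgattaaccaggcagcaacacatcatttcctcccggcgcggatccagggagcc
Upp2, start 2 (chr2:58754934-58755183, plus strand): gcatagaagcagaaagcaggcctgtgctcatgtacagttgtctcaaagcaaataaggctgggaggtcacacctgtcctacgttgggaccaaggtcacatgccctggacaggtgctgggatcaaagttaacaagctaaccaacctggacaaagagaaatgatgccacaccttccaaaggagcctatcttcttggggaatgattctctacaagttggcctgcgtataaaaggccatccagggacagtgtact

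Per3 holds the D-box 2 times, at 205 and 158 bases before its start, and 0.128% of all entries hold it at least 2 times. Tef holds the E-box once before each of its starts, at 127 and 138 bases. Nr1d1 and both starts of Upp2 hold none of the 3 words in this window.

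Of the 28 immediate-early genes tested, 4 were called lower at 20 h and none higher by limma, where 3.56% and 5.19% of all genes tested were. At an unadjusted limma p below 0.05, 2 were higher, and 2 were called higher with only the compared libraries in the fit. Without S20 replicate 1 or without S20 replicate 2, 1 was lower. The 4 were Egr1, Ctgf, Maff and Zfp36, and not one of them was called against both C0 triplicates. Egr1 was at −0.26, 0.63 and −0.64 in S20 and spread from 1.09 to 5.54 in C0 (−2.49 ± 0.69, adjusted p = 0.0073). Rgs16, a regulator of G protein signalling with a feeding-dependent rhythm, showed a like spread, at −1.29, −2.79 and −0.92 in S20 against −0.65 to 4.30 in C0 (−3.08 ± 0.70, adjusted p = 0.0011), and was not called against C0 replicates 1 to 3 (−1.35, adjusted p = 0.176).

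Of 22 chemokine and adhesion genes 4 were higher and 1 lower, where 5.19% and 3.56% of all genes tested were. In this list 1 gene was higher and 4 lower against C0 replicates 7 to 9, and without S20 replicate 1 or without S20 replicate 2, 2 were higher. Cxcl1, a neutrophil chemokine, was at 3.55, 4.61 and 3.61 against 0.05 to 1.96 (2.86 ± 0.62, adjusted p = 0.000663), and Icam1, the adhesion molecule, at 2.30, 2.45 and 2.42 against 0.22 to 1.29 (1.60 ± 0.30, adjusted p = 7.97e-05), both against each of these triplicates. Against C0 replicates 7 to 9, in which the mean of Cxcl1 was 4.23 and that of Icam1 1.98, neither was called. Ccl6 was called higher (1.43 ± 0.45), but not against C0 replicates 1 to 3 (adjusted p = 0.0938). Ccl5 was called lower (−0.77 ± 0.27) with 1 S20 library listed at 0, and against neither triplicate alone. Of 24 interferon genes 2 were higher. Stat2, the interferon signal transducer, was at 4.34, 4.09 and 4.36 against 2.96 to 3.53 (0.99 ± 0.15), while Igtp was called at 0.60 ± 0.22 over all 6 C0 livers and against neither triplicate alone. With the libraries set to the same median, the interferon list had 1 gene higher and 2 lower. Of 29 matrix genes Fn1, which encodes fibronectin and is secreted by hepatocytes, rose (8.02, 7.87 and 7.83 against 6.67 to 6.95, 1.06 ± 0.14, adjusted p = 1.83e-07), as did Timp1 (1.94 ± 0.50), and Col14a1 fell (−0.79 ± 0.22). These counts of 2 higher and 1 lower are near the 5.19% and 3.56% of all genes tested. With the libraries set to the same median, 2 matrix genes were higher and 3 lower.

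Of 38 cell cycle genes 2 were higher, the E2F factors E2f8 and E2f2, and none was lower. Of all genes tested 5.19% were higher and 3.56% lower, so the count of higher genes is near that share. E2f8, an atypical repressor of the family, was at 0.97, 1.04 and 1.37 against −1.28 to −0.11 (1.54 ± 0.30, adjusted p = 0.000168), and E2f2 was at −1.46, −2.20 and −1.37 against −4.60 to −2.26 (0.68 ± 0.22) and was not called against C0 replicates 1 to 3 (adjusted p = 0.225). The list had a median of −0.20. Of 31 genes for ribosome biogenesis 1 was called, nucleophosmin (Npm1, −0.59 ± 0.12), which is near the share of all genes tested that were lower.

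Markers of other liver cells gave few calls against C0 replicates 1 to 6 and more against C0 replicates 7 to 9, where 7 of 14 macrophage, 6 of 10 endothelial, 5 of 11 stellate, 4 of 6 T and NK and 4 of 5 B cell markers were lower. Of 14 Kupffer cell and macrophage markers Marco, a scavenger receptor, was higher (0.78, 1.90 and 1.98 against −1.88 to 0.01, 1.87 ± 0.56, adjusted p = 0.0135), and the summed RPKM of the 14 was 55.9 to 71.4 in S20 and 26.9 to 74.3 in C0. Of 5 B cell markers tested Ighm, the immunoglobulin M heavy chain, was lower (−1.62 ± 0.51). Neither Marco nor Ighm was called against C0 replicates 1 to 3 (adjusted p = 0.0823 and 0.0760). Among the stellate and fibroblast markers 2 of 11 were lower and among the endothelial markers 1 of 10, beside 3.56% of all genes tested. Of the acinar markers of the pancreas, which lies near the liver, Cela1 alone was tested. It was lower (−1.36 ± 0.25, adjusted p = 5.05e-05), and 4 of the 10 were listed at 0 in all 9 libraries. No marker of the T and NK, erythroid, cholangiocyte, mesothelium, adipocyte or muscle lists was called by limma at these thresholds; at an unadjusted p below 0.05, 3 T and NK markers and 1 erythroid marker were lower and 1 mesothelium marker was higher. Of the 10 hepatocyte markers 4 were lower and none higher, and 2 of the 4 were lower against each C0 triplicate alone. In whole liver, fewer cells of a type and less RNA per cell cannot be told apart.

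The S48 livers are sham livers killed at the resting hour. They had 930 called genes against the same C0 livers (6.04% of those tested), of which 418 were higher (2.71%) and 512 lower (3.33%). With the sum set equal after leaving out the 50 most abundant genes, the split was 515 and 389. Against C0 replicates 1 to 3, 4 to 6 and 7 to 9 alone, S48 had 1064, 987 and 3769 calls. The study places the S48 RNA libraries in 1 experimental period and the resting livers in all 3, so surgery and period were not separated here. The rising acute-phase list had 29 of 34 genes higher and a median of 2.01 at 48 h, beside 25 and 1.37 at 20 h, and both use the same C0 livers. The P450 list had 11 genes lower at 48 h beside 17 at 20 h, the amino acid list 3 beside 19, the bile acid list 5 beside 3, and the growth hormone and IGF list 6 beside 4. S20 was then compared with S48 directly, in which no C0 liver takes part. It called 742 genes (4.82%), 568 of them higher in S20 (3.69%) and 174 lower (1.13%). With the libraries set to the same median the split was 259 and 384, and without S20 replicate 1 the calls fell to 256. Time after surgery and hour of day differ together here, and the study places these groups in different experimental periods.

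In S20 against S48 the cholesterol list had 11 of 24 genes higher, a median of 0.99 and no gene lower, beside a median of 0.07 for all genes tested. Mvd (2.05 ± 0.59) and Lss (1.75 ± 0.46) were among them. The clock genes Per2 (1.53 ± 0.33) and Per3 (0.75 ± 0.20) and the output genes Tef (1.20 ± 0.28) and Wee1 (1.16 ± 0.31) were higher as well, while Arntl did not differ by the test (−0.03 ± 0.23). The immediate-early list had 7 of 28 genes lower and the amino acid list 7 of 38. The named extremes were G0s2, an inhibitor of lipolysis (6.39, 6.30 and 5.80 in S20 against 3.37, 3.53 and 1.97 in S48), Saa3 (7.14, 7.92 and 7.63 against 4.48, 4.74 and 4.24) and Mir1968 on the high side. On the low side were Igfbp1 (3.45, 4.68 and 3.90 against 8.43, 7.62 and 8.37), the row mmu-mir-2134-2, and Lpin1 (2.31, 2.15 and 2.51 against 6.76, 5.37 and 6.29). Mir1968 and mmu-mir-2134-2 are short loci that poly(A) libraries do not measure well, and Mir1968 is listed at 0 in each S48 library.

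S20 against S10 spans the dark phase. It called 1727 genes (11.2%), of which 835 were higher in S20 (5.42%) and 892 lower (5.79%). With the libraries set to the same median the split was 1152 and 645. Of the 17 core clock genes 4 were higher and 7 lower. Arntl rose from −1.03, −1.34 and −0.56 in S10 to 3.00, 3.02 and 2.93 in S20 (3.42 ± 0.23), whereas the output gene Dbp fell by 4.69 ± 0.38 on the log2 scale and Nr1d1 by 3.50 ± 0.58. Ppp1r3c, a glycogen-targeting subunit of protein phosphatase 1, rose by 3.36 ± 0.44. The cholesterol list had 12 of 24 genes higher and the fatty acid synthesis list 10 of 23. The rising acute-phase list had 11 of 34 genes lower than at 10 h, among them Serpina3n (−1.14 ± 0.28), and A2m, an acute-phase protease inhibitor, fell by 3.35 ± 1.01. Saa2 (−0.25 ± 0.78), Saa1 (−0.15 ± 0.73) and Lcn2 (−0.84 ± 0.72) did not pass the threshold between 10 and 20 h.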

How the data were processed

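Poly(A) RNA of single livers had been sequenced as stranded single-end reads. The authors trimmed the reads with Cutadapt and prinseq-lite, mapped them to mm9 with TopHat 2.0.13 and Bowtie2, processed them with SAMtools 0.1.19 and counted them per Ensembl gene with featureCounts, a read with several positions being divided among them. They deposited log2 RPKM values, in which genes without reads carry the lowest value of −14.29. Of 84 columns, 80 matched a labelled sample, and the other 4 were not used. 7 of 87 labelled samples had no column and were not analysed here. Multi-position reads make values of near-identical copies uncertain, and 3750 genes share their symbol with another gene.

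Values were tested as log2(RPKM + 0.25) with limma 3.58.1 (trend) in R 4.3.3, with all 80 libraries in the fit, 1 coefficient per group (C0 replicates 7 to 9 apart) and 15396 genes above log2 RPKM −1.5 in at least 1 library. The study's own count-based test could not be repeated on RPKM. A fold change on this scale understates the change of low genes. Genes were called at a Benjamini-Hochberg adjusted p under 0.05 with a change of more than 0.5 on the log2 scale. The test was checked on simulated data. Depth was estimated from the value that 1 read takes in low genes. The deposited replicates are separate livers.

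Named genes are the 12 largest rises and 12 largest falls with a unique symbol and groups that did not overlap, all core clock genes, up to 4 called members of each other list, and the 3 extremes each way against S48 and S10. Further members (such as Hp, Hpx, Socs3, Cps1, Mvd, Hspa5, Marco, Crp and Saa4) were named after their values were seen. The members and lists were chosen with earlier results of these data known. Some genes that the rule chose are not reported here. Promoter sequences are from RefSeq (GRCm38.p6), with an entry for 8 of the genes looked up, and gene positions are from mm9. Alternatives varied the pseudocount, the filter, the scaling, the trend, the libraries in the fit, a replicate block, the C0 replicates and single libraries.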

Additional observations from a re-analysis of the deposited data

Results flagged for a closer look

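Among 132 genes chosen for description, the spread over the 6 C0 livers was examined with Dixon's critical value for 6 samples (0.625). Of these, 3 genes had a liver beyond it, where chance flags about 1 group in 20, so the count is below that share. All 3 values were in C0 replicate 1, with Derl3 high at log2 RPKM 2.87, and Lss at 2.03 and Ppp1r3c at 4.82 low.

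S20 and S48 differed from each other by the limma test, at the thresholds above, for the following genes, among others. The values are S20 minus S48 on the log2(RPKM + 0.25) scale, so C0 does not enter them. Igfbp1 (−4.11) lay below C0 in S20 and above it in S48.

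Higher in S20 were the acute-phase genes Saa3 (3.06) and Serpina3n (1.23), the clock and output genes Per2 (1.53), Per3 (0.75), Wee1 (1.16) and Tef (1.20), and the cholesterol genes Mvd (2.05), Lss (1.75) and Srebf2 (0.80). G0s2 (3.16), E2f8 (1.09), Nqo1 (1.04), Slc30a1 (0.85), Stat2 (0.84) and the short locus Mir1968 (2.74) were higher as well. The rising acute-phase list as a whole had 2 of 34 genes higher in S20 and 5 lower, with a median of −0.22. Of all genes tested 3.69% were higher and 1.13% lower, with a median of 0.07. Saa3 was not called when any single S20 or S48 library was left out, or with the libraries set to the same median.

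Lower in S20 were Lpin1 (−3.75), Scd1 (−2.01), Pck1 (−1.87), Got1 (−1.75), Tat (−1.71), Sds (−1.43), Ass1 (−1.15), Ppargc1a (−0.99) and Cps1 (−0.76). So were Rgs16 (−3.26), Cxcl1 (−3.16), Egr1 (−2.64), Hamp2 (−2.36), Prtn3 (−1.60), Ctgf (−1.55), Socs3 (−1.29) and Zfp36 (−1.17). Gsta4 (−1.79), Cyp3a11 (−0.98), Cyp3a44 (−0.97), Npm1 (−0.54) and the short locus mmu-mir-2134-2 (−4.10) completed the set.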

How the results depend on the processing

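With a pseudocount of 1 the calls were 833 for S20 against C0, 466 for S20 against S48 and 1147 for S20 against S10. With C0 replicates 7 to 9 as the resting livers they were 4181 for S20 and 3769 for S48. S20 against S48 was the least stable, with 257 calls when only the compared libraries entered the fit and 256 to 669 when single libraries were left out (256 without S20 replicate 1, 441 without S20 replicate 3, 312 without S48 replicate 1 and 346 without S48 replicate 3). Leaving out single libraries gave 936 to 1537 calls for S20 against C0 and 1352 to 1815 for S20 against S10. The cause was not tested.

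The replicate numbers did not pair the livers (correlations of same-numbered deviations included −0.108 and 0.103). With the replicate number as a block limma called 1 gene for S20 against C0, 2 for S48 against C0, 216 for S20 against S10 and 0 for S20 against S48, where 3278 genes had an unadjusted p below 0.05. C0 replicates 4 to 6 share no number with S20, so the block rests on C0 replicates 1 to 3, and Arrdc2 (0.042) and Ctgf (0.12) changed sign both under it and with those 3 livers alone.

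Among differences called over all 6 C0 livers or under the alternative, the other changes of sign were Per1 against C0 replicates 4 to 6 (−1.15), and Tat (0.13), Scd2 (0.21), Cxcl1 (−0.33) and S100a9 (−1.12) against C0 replicates 7 to 9. Of 121 called values of named genes, 52 were called under every alternative run other than the block. At the depth of S20, genes near the detection threshold rest on about 10.8 reads per 2 kb.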
